A study of Homo sapiens with 14 samples.

Results

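RNA interference against the BRD genes was done in this series with a pair of siRNA pools, labelled mix A and mix B, and the comparison described here sets the 2 mix A libraries against the 2 mix B libraries, with the 2 control siRNA libraries as the level from which each mix departs. The members were taken by their labels, and these 4 BRD siRNA libraries are 4 of the 14 RNA-seq libraries of the series. All libraries came from MDA-MB-231, a mesenchymal-like triple-negative breast carcinoma line. The groups used were BRD siRNA mix A and BRD siRNA mix B, each harvested 72 h after transfection with Lipofectamine RNAiMAX, and YAP/TAZ siRNA mix 1 and mix 2, harvested at 48 h. JQ1 at 1 µM for 24 h, DMSO and control siRNA completed them, and the labels give no harvest time for DMSO or control siRNA. Each group held 2 libraries, and nothing in the labels says whether the replicates were separate cultures. The p-values therefore measure only the spread between replicate libraries, taken per gene over all groups together. The labels name neither the siRNAs in a mix nor the BRD genes each siRNA addresses, and a single cell line was used.

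BET proteins are a family of bromodomain proteins that includes BRD2, BRD3 and the testis protein BRDT. They bind acetylated lysines on histones and bring the elongation kinase P-TEFb to promoters and enhancers, and JQ1 displaces them from chromatin. YAP and TAZ are the transcriptional coactivators of the Hippo pathway, which act with TEAD factors on genes such as CTGF and CYR61. An siRNA loads an Argonaute protein with a guide strand that leads to cleavage of a fully matching transcript, and the guide's seed can also lower transcripts that match it only in part, mostly through their 3'UTRs. Separate siRNAs against the same gene therefore share the target and not the sequence.

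The 6 libraries of the mixes and control siRNA held between 15741695 and 29931316 reads, with a median of 23002579. The mix A replicates stood further apart than those of the other groups, with a chi-square per gene of 10.6 against sampling noise, compared with 3.51 for mix B and 4.94 for control siRNA. The standard errors below rest on a spread shared by all groups and can be too small for mix A. Levels below are CPM after the authors' between-library scaling (scaled CPM). A difference is on the log2(scaled CPM + 1) scale, where changes of low genes come out too small, with its standard error, from limma over all 14 libraries, and a gene is called at a Benjamini-Hochberg adjusted p under 0.05. The mesenchymal-like markers, 14 of 15 measured, summed to 9296 and 9927 scaled CPM in mix A and 9192 and 9617 in mix B, against 8640.4 and 8792 in control siRNA libraries, and 8 of them were higher (57.1%) and 2 lower (14.3%) in mix A than in mix B, against 25.7% and 24.3% of all genes. Leukocyte markers, 5 of 15 measured, summed to 43.3 and 43.7 scaled CPM in mix A and 38.5 and 39.0 in mix B, against 70.7 and 73.3 in control siRNA libraries. Fibroblast and endothelial markers, 4 of 14 measured, summed to 53.2 and 50.0 scaled CPM in mix A and 32.7 and 32.9 in mix B, against 13.6 and 17.9 in control siRNA libraries, most of it from the receptor kinase gene KDR.

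BRD2 and BRD3 were lower than control in both mixes, and to a like degree in the mixes for BRD3. BRD3 stood at 10.6 and 9.05 scaled CPM in mix A and 10.1 and 9.25 in mix B, against 32.5 and 29.7 in control siRNA libraries. Both mixes lay far below control and overlapped each other, with a mix A minus mix B difference of 0.016 ± 0.086 (limma adjusted p = 0.9, 95% interval -0.16 to 0.20).

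BRD2 stood at 204 and 175 scaled CPM in mix A and 166 and 154 in mix B, against 251 and 252 in control siRNA libraries. Here the mixes left most of the transcript in place, and mix B was the lower, with a difference of 0.24 ± 0.064 (limma adjusted p = 0.0037). Against control siRNA, mix A changed BRD2 by -0.41 ± 0.064 and BRD3 by -1.57 ± 0.086, and mix B changed BRD2 by -0.65 ± 0.064 and BRD3 by -1.59 ± 0.086. The BRD2 call between the mixes was lost without mix A replicate 1 (0.13, limma adjusted p = 0.096), without mix B replicate 2 (0.19, limma adjusted p = 0.07) and under quantile normalization (0.14, limma adjusted p = 0.1).

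**Figure D1:**
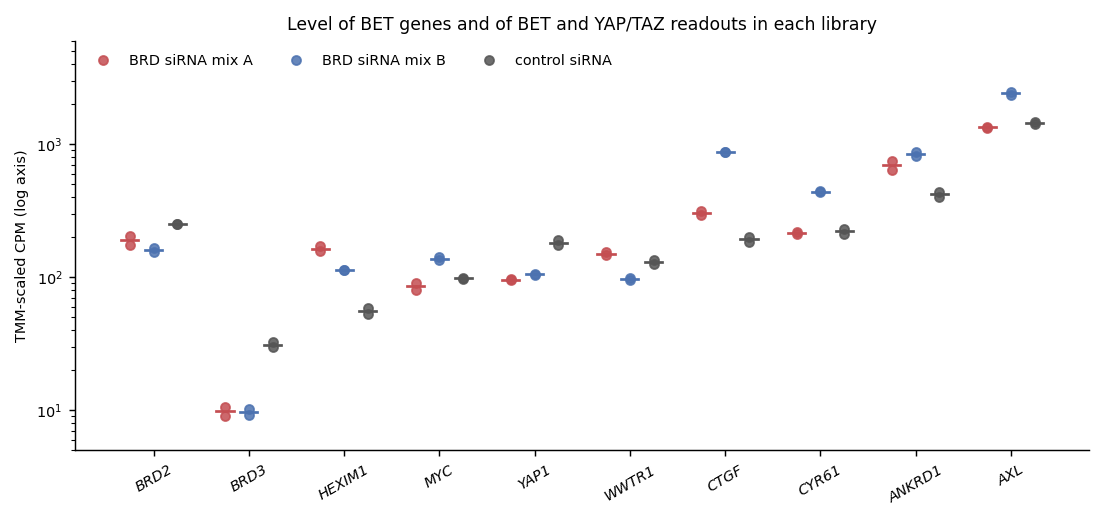
Level of BRD2, BRD3, HEXIM1, MYC and the YAP/TAZ genes and readouts in each library of BRD siRNA mix A, BRD siRNA mix B and control siRNA (scaled CPM, log axis; points are libraries, lines the mean of 2). The BRD3 points of the mixes overlap, while CTGF, CYR61 and AXL are lower in mix A than in mix B.

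Over all genes, the mixes differed from each other in many transcripts, mostly by a small amount. Of 13674 genes tested, 6843 were called between mix A and mix B (50.0% of genes tested), 3514 of them higher in mix A (25.7%) and 3329 lower (24.3%). The median absolute difference was 0.22, against 0.43 for mix A minus control siRNA and 0.40 for mix B minus control siRNA. At least 2-fold differences on this scale were found for 267 genes higher (1.95%) and 215 lower (1.57%) in mix A. Their sum of 482 (3.52%) became 932 in edgeR on the recovered reads and 862 in DESeq2, which take no pseudocount of 1. Against control siRNA, 10019 genes (73.3%) were called in mix A, 2141 of them at least 2-fold (15.7%), and 9685 (70.8%) in mix B, 1855 of them at least 2-fold (13.6%). The other pair of siRNA pools, YAP/TAZ mix 1 against mix 2, gave 8981 calls (65.7%), with 1283 of at least 2-fold (9.38%) and a median absolute difference of 0.33.

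**Figure D2:**
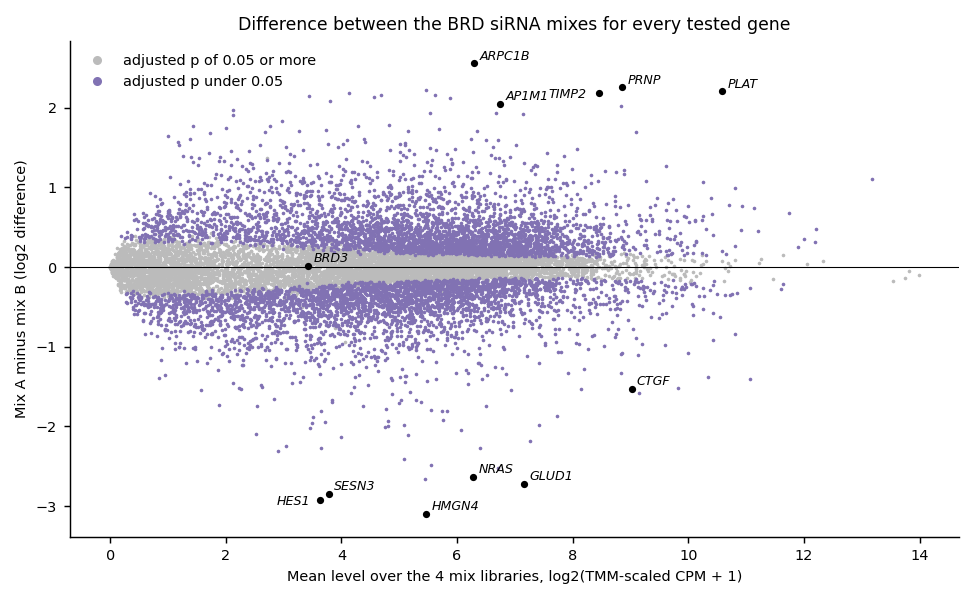
Mix A minus mix B difference (log2) against the mean level over the 4 mix libraries for each tested gene, with 12 genes marked. The called genes lie on both sides at all levels, from HMGN4 at -3.10 to ARPC1B at 2.56, with BRD3 near 0.

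Of the 15 genes lowest in mix A against mix B, mix A was called below control siRNA in 13 and above it in 1, while mix B was called above control in 9, below it in 3 and not called in 3. Over all 13674 genes tested, 36.1% were called below control in mix A, and 4830 genes above it in mix B. The 15 genes were chosen by the difference between the mixes in these libraries, which favours such departures. The counts are therefore a description. HMGN4, a nucleosome-binding high mobility group protein, had 14.4 and 13.9 scaled CPM in mix A and 125 and 132 in mix B, against 133 and 123 in control siRNA libraries. Mix A was far below both other groups, which overlapped, and the difference from mix B was -3.10 ± 0.063 (limma adjusted p = 1.9e-18). JQ1 libraries had 125 and 129 and DMSO libraries 135 and 124 scaled CPM of HMGN4, a difference of -0.032 ± 0.063.

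NRAS, the RAS family GTPase, had 29.5 and 30.6 scaled CPM in mix A and 191 and 192 in mix B, against 232 and 207 in control siRNA libraries. Its mix A libraries held the lowest levels by a wide margin, with a difference of -2.63 ± 0.061 from mix B (limma adjusted p = 8.7e-18). GLUD1, mitochondrial glutamate dehydrogenase, had 51.8 and 57.4 scaled CPM in mix A and 357 and 372 in mix B, against 317 and 299 in control siRNA libraries. Mix B was slightly above control and mix A far below it, so that the mixes differed by -2.72 ± 0.06. TMX3, an endoplasmic reticulum thioredoxin-like disulfide isomerase, had 15.7 and 16.9 scaled CPM in mix A and 108 and 108 in mix B, against 107 and 98.4 in control siRNA libraries. Of these groups mix A alone was low, with a difference of -2.65 ± 0.071.

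SCRN1, which encodes secernin, had 44.5 and 41.2 scaled CPM in mix A and 251 and 249 in mix B, against 350.2 and 342 in control siRNA libraries. Both mixes were under control and mix A by far the most, and the mixes differed by -2.52 ± 0.055. PAFAH1B2, a catalytic subunit of platelet-activating factor acetylhydrolase, had 68.3 and 73.4 scaled CPM in mix A and 323 and 329 in mix B, against 327 and 283 in control siRNA libraries. LHFP had 6.02 and 7.21 scaled CPM in mix A and 32.7 and 32.0 in mix B, against 38.0 and 37.7 in control siRNA libraries. For both, mix A was low while mix B lay close to control (0.10 ± 0.062 for PAFAH1B2 and -0.22 ± 0.087 for LHFP), and the mixes differed by -2.19 ± 0.062 and -2.13 ± 0.087 in that order of genes.

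HES1, the Notch-induced transcriptional repressor, had 3.27 and 3.74 scaled CPM in mix A and 34.0 and 32.3 in mix B, against 22.3 and 22.8 in control siRNA libraries. Mix A was far below control and mix B above it, a difference of -2.92 ± 0.10 between mixes, and JQ1 lowered it too (-1.0 ± 0.10). SSPN, sarcospan of the dystrophin complex, had 2.13 and 2.62 scaled CPM in mix A and 15.4 and 15.9 in mix B, against 2.02 and 1.93 in control siRNA libraries. Mix B stood well above control, and mix A was not called against control siRNA (0.18 ± 0.11) but was above DMSO (0.54). The mixes differed by -2.31 ± 0.11. CPA4, a secreted carboxypeptidase, had 37.4 and 37.0 scaled CPM in mix A and 186 and 181 in mix B, against 23.0 and 26.1 in control siRNA libraries, so that both mixes were above control and mix B far more, by -2.27 ± 0.079 between the mixes. TTC38 and MIF4GD were also lower in mix A than in mix B, by -2.41 ± 0.068 and -2.25 ± 0.10.

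Of the 15 genes highest in mix A over mix B, mix A was called above control siRNA in 15, and mix B was called below it in 13 and above it in 1. Over all 13674 genes tested, 5082 were called above control in mix A, and 35.5% below it in mix B. These 15 genes too were chosen by the difference between the mixes in the same libraries, so that the counts are a description. PLAT, tissue plasminogen activator, had 3171 and 3404 scaled CPM in mix A and 717 and 707 in mix B, against 141 and 148 in control siRNA libraries. Both mixes were far above control and mix A further, with a difference of 2.2 ± 0.056 between the mixes (limma adjusted p = 4e-17). TIMP2, the tissue inhibitor of metalloproteinases, had 724 and 770.3 scaled CPM in mix A and 167 and 159.6 in mix B, against 209 and 219 in control siRNA libraries, and here mix A was above and mix B below control. The TIMP2 mixes differed by 2.19 ± 0.056. C10orf54, which encodes the immune checkpoint protein VISTA, had 50.0 and 46.6 scaled CPM in mix A and 9.90 and 10.5 in mix B, against 10.6 and 14.1 in control siRNA libraries. C10orf54 differed between the mixes by 2.14 ± 0.11, and mix B was not called against control siRNA (-0.24 ± 0.11). It was called above DMSO (0.82), and called below control siRNA under plain totals (-0.33) and without control siRNA replicate 1 (-0.43).

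AP1M1, a subunit of the clathrin adaptor complex AP-1, lay far below control in mix B and near it in mix A. It had 215 and 218 scaled CPM in mix A and 50.8 and 52.6 in mix B, against 189 and 202 in control siRNA libraries. The mixes differed by 2.05 ± 0.056 (limma adjusted p = 9.5e-17). Their libraries did not overlap, which the choice of the gene required and which held for 71.37% of all genes tested. JQ1 minus DMSO was -0.013 ± 0.056 for this gene. PPP1R2, an inhibitor of protein phosphatase 1, had 114 and 130.3 scaled CPM in mix A and 26.5 and 27.8 in mix B, against 73.2 and 71.4 in control siRNA libraries. ISOC1, an isochorismatase-domain protein, had 26.0 and 29.8 scaled CPM in mix A and 5.75 and 5.84 in mix B, against 16.0 and 17.3 in control siRNA libraries, and CHST3, a chondroitin sulfotransferase, had 102 and 103 scaled CPM in mix A and 20.1 and 24.6 in mix B, against 59.9 and 57.4 in control siRNA libraries. For PPP1R2, ISOC1 and CHST3, mix A stood above and mix B below control, and the mixes differed by 2.12 ± 0.066, 2.09 ± 0.086 and 2.15 ± 0.076 in that order. Against the DMSO libraries, mix A was not above the control for AP1M1, ISOC1 and CHST3. S100A4, a calcium-binding protein linked to cell motility, had 895 and 944 scaled CPM in mix A and 227 and 226 in mix B, against 357 and 400.3 in control siRNA libraries. S100A4 in mix B was below control siRNA and above DMSO, and it differed between the mixes by 2.01 ± 0.063, and ONECUT2, a homeodomain factor, differed by 1.97 ± 0.14.

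**Figure D3:**
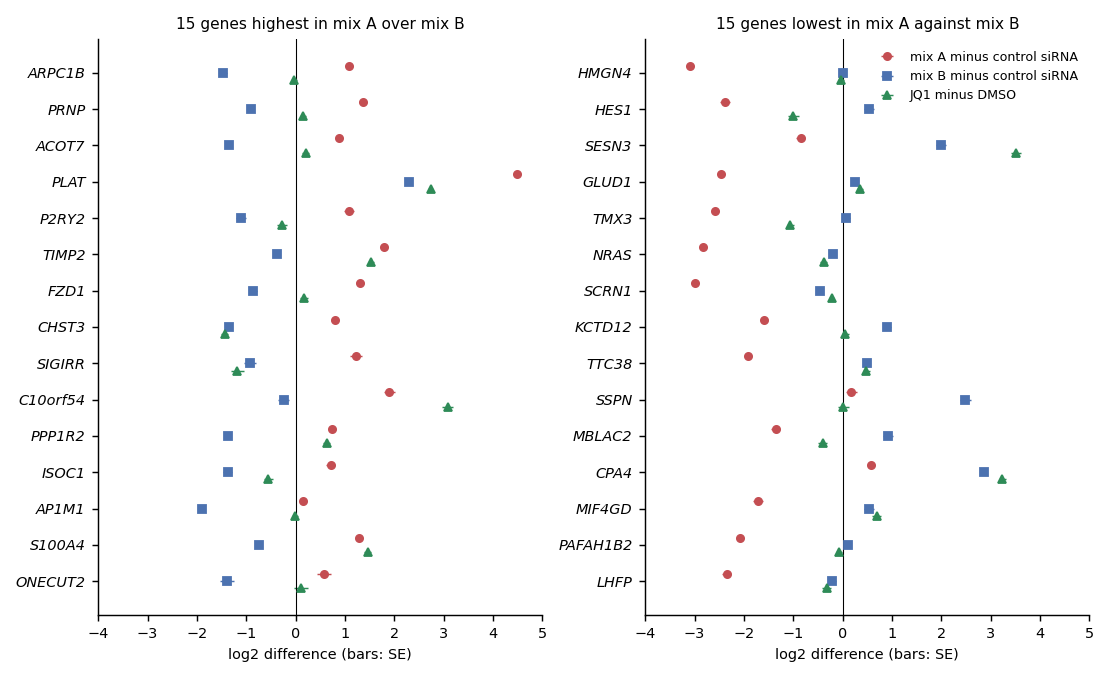
Difference from control siRNA of BRD siRNA mix A and of BRD siRNA mix B, and JQ1 minus DMSO, for the 15 genes highest and the 15 lowest in mix A against mix B (log2 difference, bars SE). HMGN4 and PAFAH1B2 lie far below control with mix A and near 0 with mix B and JQ1, TMX3 is also lower after JQ1, and AP1M1 lies far below control with mix B and near 0 after JQ1.

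Some genes moved to opposite sides of the control siRNA level, and both comparisons with control share its 2 libraries. ARPC1B, a subunit of the ARP2/3 actin nucleator, had 179.9 and 200.3 scaled CPM in mix A and 30.2 and 32.7 in mix B, against 86.0 and 91.4 in control siRNA libraries. No library of either mix came near control, and a lack of overlap between the mixes was required by the choice of the gene. The mixes differed by 2.56 ± 0.067 (limma adjusted p = 5.5e-17), with mix A at 1.09 ± 0.067 and mix B at -1.47 ± 0.067 relative to control. PRNP, the prion protein gene, had 947 and 1087 scaled CPM in mix A and 212 and 212 in mix B, against 411 and 382 in control siRNA libraries. PRNP differed between the mixes by 2.25 ± 0.062. ACOT7, an acyl-CoA thioesterase, had 92.0 and 95.7 scaled CPM in mix A and 18.8 and 19.9 in mix B, against 48.9 and 52.7 in control siRNA libraries. ACOT7 differed between the mixes by 2.22 ± 0.064.

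P2RY2, a purinergic receptor for ATP and UTP, FZD1, a Wnt receptor, SIGIRR, a negative regulator of interleukin-1 receptor signalling, HMGA2, an architectural chromatin protein, and NGFR, the low-affinity neurotrophin receptor, followed the same order. Their mix A minus mix B differences were 2.19 ± 0.10, 2.16 ± 0.082, 2.14 ± 0.13, 1.93 ± 0.082 and 1.75 ± 0.15 as listed. HMGA2 had 194 and 203 scaled CPM in mix A and 54.2 and 49.0 in mix B, against 97.6 and 121 in control siRNA libraries, without overlap between the groups.

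The reverse order, mix A below and mix B above control, was found for SESN3, a stress-induced regulator of mTORC1, which had 4.12 and 4.11 scaled CPM in mix A and 35.5 and 36.1 in mix B, against 7.99 and 8.49 in control siRNA libraries. Mix B was above control by 1.99 ± 0.10 and mix A stood at -0.85 ± 0.10 relative to it, so that the mixes differed by -2.85 ± 0.10 (limma adjusted p = 2.6e-15). JQ1 minus DMSO was 3.51 ± 0.10 for SESN3. KCTD12, an auxiliary subunit of GABA-B receptors, had 19.5 and 18.3 scaled CPM in mix A and 110.5 and 109.8 in mix B, against 65.7 and 52.5 in control siRNA libraries. KCTD12 differed between the mixes by -2.48 ± 0.077. GNPNAT1, of hexosamine synthesis, differed by -1.81 ± 0.063, C9orf72 by -1.88 ± 0.14, the noncoding EPB41L4A-AS1 by -1.58 ± 0.085, the small GTPase gene RHOB by -1.67 ± 0.08, the splicing repressor PTBP2 by -1.45 ± 0.078 and MBLAC2 by -2.27 ± 0.10. For the antisense gene EPB41L4A-AS1, reads cannot be told from those of the overlapping gene unless strand was used in counting, and no source used here states it. With the DMSO libraries as the control, 7 of these 16 genes (SESN3, RHOB, SIGIRR, MBLAC2, HMGA2, NGFR and GNPNAT1) no longer had the mixes on opposite sides, and EPB41L4A-AS1 in mix B was no longer called.

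Short sequence words shared by genes on each side were counted in the 3'UTRs, as a description of these transcripts. The 3'UTR of the longest-UTR coding transcript in GENCODE 29 (a GRCh38 annotation, whereas the deposited table was made with hg19) could be assigned to 11925 of the 13674 genes tested, 87.21%. All 7-letter words found in at least 50 genes were ranked on the length-adjusted differences of mix A replicate 1 minus mix B replicate 1. The score was the gap in the mean between genes with and without the word, divided by its standard error. A common word can therefore rank high with a small gap. The first 4 of each side were then read in the replicate 2 libraries. The words had first been seen in a scan over all libraries, replicate 2 included, so that replicate 2 is no independent check of them. Letters were searched on the transcript strand only. On the side lower in mix A, the words were ATCATAA, which overlaps its neighbour TCATAAA, and likewise AAAGCCT, which overlaps its neighbour AAGCCTT. On the side higher in mix A, the words were GTACCAA, the GC-rich word CCAGCCC, the GC-rich word GCCCCTC and the GC-rich word CCCTGCC.

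Windows of 27 bases are shown for some genes named above that hold a word of their own side, with the word in capitals and all strands 5' to 3' along the transcript. Named genes also held words of the other side. FZD1, CHST3 and HMGA2, higher in mix A, held ATCATAA, and KCTD12, lower in mix A, held CCCTGCC.
GLUD1 (chromosome 10, 3'UTR bases 665 to 671): gtatttttatATCATAAaacaatgtca
TMX3 (chromosome 18, 3'UTR bases 601 to 607): cagttgcattATCATAAaattttcata
HMGN4 (chromosome 6, 3'UTR bases 306 to 312): tttggcacggAAGCCTTacagtgtggg
SCRN1 (chromosome 7, 3'UTR bases 328 to 334): agagttcatcAAGCCTTgaaaggcagg
NRAS (chromosome 1, 3'UTR bases 3322 to 3328): atgatttttaAAAGCCTgagtactgac
PAFAH1B2 (chromosome 11, 3'UTR bases 3008 to 3014): attgtatgctAAAGCCTgaaatattgt
ARPC1B (chromosome 7, 3'UTR bases 153 to 159): tgtttctgggGTACCAAtacgagttcc
AP1M1 (chromosome 19, 3'UTR bases 310 to 316): gagctcccagGTACCAAaaagcttggc
PPP1R2 (chromosome 3, 3'UTR bases 95 to 101): catgacttaaGTACCAAaatgcatacc
ISOC1 (chromosome 5, 3'UTR bases 362 to 368): agaaaatgacGTACCAAcaatgatttg

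GTACCAA was held by the 3'UTRs of 885 genes (7.42%), and ATCATAA by 1426 (12%). Unlike the ranking, the medians given here were not adjusted for 3'UTR length. Whether length accounts for gaps between them was not tested. In replicate 2, genes with GTACCAA had a median mix A minus mix B difference of 0.15, against 0.0038 for genes without it. Set against control siRNA replicate 2, their median was 0.039 in mix A and -0.15 in mix B, and their JQ1 minus DMSO median was -0.0081. The words also went with differences outside the BRD mixes. Between the YAP/TAZ siRNA mixes, genes with GTACCAA had a median of 0.16 for mix 1 minus mix 2, against -0.049 without the word. Those with ATCATAA had 0.051, against -0.043 without it, and those with AAGCCTT had 0.077, against -0.052. These YAP/TAZ values average both replicates, whereas the BRD values are of replicate 2. For each of these words, GTACCAA included, the gap was larger than that between the BRD mixes in replicate 2. Genes with ATCATAA had a median mix A minus mix B difference of -0.052 in replicate 2, against 0.021 without it. Relative to control siRNA replicate 2, their median was -0.08 in mix A and 0.0026 in mix B. In replicate 1, the mix A minus mix B median was -0.099 with ATCATAA, against 0.015 without it. That gap was wider than the one between the YAP/TAZ mixes. In replicate 2, genes with AAGCCTT had a median mix A minus mix B difference of -0.052, against 0.023 without it. More copies went with a larger median shift for some words and not for others, again without adjustment for 3'UTR length. The median was -0.093 with 2 or more ATCATAA and -0.045 with 1, and -0.12 and -0.034 for AAGCCTT. It was 0.14 with 2 or more GTACCAA and 0.15 with 1, and 0.018 and 0.038 for CCAGCCC. Genes with the word in the coding sequence only had medians of -0.059 for ATCATAA and 0.078 for GTACCAA.

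By rank, ATCATAA was first on the lower side and GTACCAA on the higher side in both replicates, while the GC-rich words stood at ranks 11 for CCAGCCC, 12 for GCCCCTC and 55 for CCCTGCC in replicate 2. Genes with the GC-rich words were also higher after JQ1, by medians of 0.10, 0.13 and 0.11. Of the 15 genes lowest in mix A, 14 had an assigned 3'UTR and 11 of these held a word of the lower side, against 37.3% of all genes. Of the 15 highest in mix A, 14 had one and 10 held a word of the higher side, against 45.6%, and 6 held GTACCAA. Of the same genes, 2 of the 14 lowest held a word of the higher side, and 4 of the 14 highest held a word of the lower side. The shares were not matched for 3'UTR length, and a longer 3'UTR has more room for a word. The 3'UTR of SESN3, for example, has 7745 bases, against a median of 1399. These genes were chosen on the same libraries, so that the counts are a description. The BRD3 transcript holds words of both sides in its coding sequence and of the higher side in its 3'UTR, and the BRD2 transcript holds words of both sides too. Many other transcripts hold these words. Among all genes, the coding sequence held ATCATAA in 5.1%, TCATAAA in 7.4% and GTACCAA in 6.5%. It held CCAGCCC in 27.9% and CCCTGCC in 23.2%. The siRNA sequences were not used here, and whether a word belongs to one of them was not tested.

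The 4 YAP/TAZ readouts named by rule were lower in mix A than in mix B. CTGF, a matricellular protein and YAP/TAZ target, had 292 and 317 scaled CPM in mix A and 879 and 880.1 in mix B, against 201 and 184 in control siRNA libraries. Both mixes were above control and mix B by far the more, with a mix A minus mix B difference of -1.53 ± 0.07 (limma adjusted p = 2.8e-13). CYR61, its relative, had 210.1 and 219 scaled CPM in mix A and 433 and 441 in mix B, against 229 and 213 in control siRNA libraries, where mix A overlapped control siRNA (it was below DMSO, -0.81) and mix B was above it, a difference of -1.02 ± 0.053. AXL, a receptor tyrosine kinase, had 1329 and 1349 scaled CPM in mix A and 2363 and 2451 in mix B, against 1469.7 and 1431 in control siRNA libraries. AXL differed between the mixes by -0.85 ± 0.063. ANKRD1, a nuclear ankyrin-repeat protein, had 643 and 749 scaled CPM in mix A and 815 and 875 in mix B, against 441 and 403 in control siRNA libraries. ANKRD1 differed between the mixes by -0.28 ± 0.071. Against the DMSO libraries, CTGF in mix A and ANKRD1 in both mixes lay below and not above the control, which leaves the differences between the mixes as they are.

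Not all readouts of this kind followed. Of 30 measured YAP/TAZ targets, 10 were higher (33.3%) and 11 lower (36.7%) in mix A, against 25.7% and 24.3% of all genes, with a median of -0.11 against -0.0056 over all genes. F3, tissue factor, was lower, with -1.27 ± 0.062, and RBMS3, an RNA-binding protein, was higher by 1.13 ± 0.072, with 48.2 and 45.9 scaled CPM in mix A and 20.8 and 21.0 in mix B, against 50.0 and 43.2 in control siRNA libraries. The coactivators themselves differed in part. WWTR1, which encodes TAZ, had 147 and 154 scaled CPM in mix A and 98.1 and 94.6 in mix B, against 135 and 126 in control siRNA libraries, with mix A above and mix B below control siRNA (mix B was above DMSO) and a difference of 0.63 ± 0.064. The call of WWTR1 in mix A against control siRNA was lost under plain totals (0.045, limma adjusted p = 0.52) and quantile normalization (0.089, limma adjusted p = 0.21), and without control siRNA replicate 2 (0.15, limma adjusted p = 0.089) or mix A replicate 2 (0.16, limma adjusted p = 0.063). YAP1 had 96.1 and 94.5 scaled CPM in mix A and 106 and 105 in mix B, against 190.0 and 174 in control siRNA libraries, lower than control in both mixes, and its difference of -0.14 ± 0.067 was not called (limma adjusted p = 0.084), although it was under plain totals (-0.20, limma adjusted p = 0.021), upper-quartile scaling (-0.18, limma adjusted p = 0.035) and quantile normalization (-0.19, limma adjusted p = 0.028). Of 30 Hippo pathway genes and TEAD factors, 10 were higher and 9 lower in mix A, with FRMD6, an upstream FERM-domain regulator, at -1.10 ± 0.063, TEAD2 at 1.06 ± 0.091 and the kinase MAP4K4 at 0.71 ± 0.052.

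Genes known to respond to BET inhibition differed in both directions. HEXIM1, an inhibitor of P-TEFb whose transcript rises with BET inhibition, had 157 and 171 scaled CPM in mix A and 113 and 114 in mix B, against 53.2 and 58.4 in control siRNA libraries. It was called above control in both mixes and more in mix A, by 0.53 ± 0.066 (limma adjusted p = 1.1e-06), and JQ1 raised it by 1.52 ± 0.066. MYC, an oncogene that many cells keep on through BET proteins, had 80.3 and 90.7 scaled CPM in mix A and 141 and 135 in mix B, against 98.3 and 97.7 in control siRNA libraries, and mix A lay below and mix B above control, a difference of -0.69 ± 0.06, though mix B was below the DMSO libraries and the mix A call against control siRNA was lost without mix A replicate 1 (-0.11, limma adjusted p = 0.13). Among 23 genes of a BET inhibitor response list, 7 were higher (30.4%) and 10 lower (43.5%) in mix A (median -0.10), against 25.7% and 24.3% of all genes. CDK6, the G1 cyclin-dependent kinase, had 83.9 and 78.3 scaled CPM in mix A and 143 and 137 in mix B, against 349.6 and 345 in control siRNA libraries. CDK6 differed between the mixes by -0.78 ± 0.057. FOSL1, an AP-1 component, had 195 and 184 scaled CPM in mix A and 97.0 and 95.5 in mix B, against 66.0 and 80.7 in control siRNA libraries. FOSL1 differed between the mixes by 0.97 ± 0.081.

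Of 32 genes of P-TEFb, HEXIM and elongation, 6 were higher (18.8%) and 3 lower (9.4%) in mix A, below the 25.7% and 24.3% of all genes. The rest were not called. LARP7, which stabilises the 7SK RNA, was lower, with -0.56 ± 0.071, and ELL2, an elongation factor, by -0.40 ± 0.058. Of 27 measured BET genes and partners at acetylated chromatin, 8 were higher (29.6%) and 8 lower (29.6%), near the shares of all genes. Among them were the deacetylase HDAC2 at 0.58 ± 0.055 and the Mediator subunit MED24 at -0.58 ± 0.066.

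AP-1 factors were mostly lower in mix A. Of 15 measured, 9 were lower (60.0%) and 1 higher (6.7%), against 24.3% and 25.7% of all genes. Their median was -0.31, and FOSL1 above was the exception. FOS had 7.73 and 7.51 scaled CPM in mix A and 17.8 and 17.0 in mix B, against 4.74 and 4.15 in control siRNA libraries. JUNB had 59.0 and 52.0 scaled CPM in mix A and 87.0 and 89.2 in mix B, against 23.7 and 27.7 in control siRNA libraries. JUND had 87.9 and 72.3 scaled CPM in mix A and 136 and 151 in mix B, against 55.9 and 63.2 in control siRNA libraries. For each, both mixes were above control and mix B further, and the mixes differed by -1.09 ± 0.11, -0.66 ± 0.085 and -0.84 ± 0.087 for FOS, JUNB and JUND. EGR1, an immediate early factor, had 5.07 and 6.47 scaled CPM in mix A and 23.9 and 21.1 in mix B, against 2.93 and 2.77 in control siRNA libraries. EGR1 differed between the mixes by -1.80 ± 0.13 in the same direction.

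DNA replication genes were lower than control in both mixes, and most were lower in mix A than in mix B. Of 55 measured DNA replication genes, 35 were lower (63.6%) and 5 higher (9.1%) in mix A than in mix B (median -0.30), against 24.3% and 25.7% of all genes. Relative to control, all 55 were called lower in mix A (median -1.89, against 36.1% of all genes called lower) and 54 in mix B (median -1.44, against 35.5%). MCM10, a replication initiation factor, had 4.31 and 5.12 scaled CPM in mix A and 12.3 and 14.4 in mix B, against 78.8 and 78.5 in control siRNA libraries. MCM10 differed between the mixes by -1.33 ± 0.095 (limma adjusted p = 3.1e-10). LIG1, DNA ligase 1, had 21.7 and 21.8 scaled CPM in mix A and 41.1 and 45.7 in mix B, against 105 and 108 in control siRNA libraries. LIG1 differed between the mixes by -0.96 ± 0.069. RPA1, a single-strand binding protein, went the other way with 102 and 119.9 scaled CPM in mix A and 48.6 and 52.0 in mix B, against 160.1 and 149 in control siRNA libraries. RPA1 differed between the mixes by 1.12 ± 0.072, as did POLD2 at 0.80 ± 0.057.

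Of 42 clustered histone genes, 27 were lower (64.3%) and 1 higher (2.4%) in mix A (median -0.31), against 24.3% and 25.7% of all genes. HIST2H2BE had 74.5 and 80.5 scaled CPM in mix A and 153 and 158 in mix B, against 157 and 161 in control siRNA libraries, with mix B overlapping control siRNA (it was below DMSO, -0.41), and the mixes differed by -1.0 ± 0.058. HIST2H3D had 16.4 and 17.5 scaled CPM in mix A and 37.5 and 41.3 in mix B, against 168 and 183 in control siRNA libraries. HIST2H3D differed between the mixes by -1.17 ± 0.082. The histone genes are near-identical copies, so that reads could be split between them. Mitotic genes shifted less, with 24 lower and 9 higher of 60 (median -0.064). INCENP, of the chromosomal passenger complex, differed by -1.0 ± 0.076 and its kinase AURKB by -0.58 ± 0.072.

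CDKN1A, the p21 inhibitor of cyclin-dependent kinases, had 62.8 and 65.6 scaled CPM in mix A and 153 and 157 in mix B, against 46.7 and 55.6 in control siRNA libraries, with both mixes above control, mix B by more, and a difference of -1.26 ± 0.067 (limma adjusted p = 2.6e-12). CCND2, cyclin D2, had 14.3 and 12.8 scaled CPM in mix A and 30.9 and 30.1 in mix B, against 11.9 and 11.5 in control siRNA libraries. CCND2 differed between the mixes by -1.12 ± 0.089. CCNG1, cyclin G1, a p53 target, had 27.0 and 27.1 scaled CPM in mix A and 102 and 107 in mix B, against 157 and 146 in control siRNA libraries, lower in mix A, with -1.91 ± 0.058, and SESN2 and TP53INP1, also p53 targets, were lower, with -1.09 ± 0.088 and -0.84 ± 0.075. The p53 target list as a whole was split, with 12 higher and 9 lower of 30. MDA-MB-231 carries a mutant p53 as background.

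Ribosomal protein genes were mostly lower in mix A. Of 80 cytosolic ribosomal protein genes, 56 were lower (70.0%) and 3 higher (3.8%) in mix A than in mix B, against 24.3% and 25.7% of all genes. The median was -0.27, against -0.0056 over all genes. Relative to control, the median was -0.081 in mix A and 0.15 in mix B. RPS12 had 403 and 442 scaled CPM in mix A and 801 and 846 in mix B, against 578 and 629.6 in control siRNA libraries. RPS12 differed between the mixes by -0.96 ± 0.062. RPSA had 249 and 279 scaled CPM in mix A and 512 and 535 in mix B, against 503 and 504 in control siRNA libraries. RPSA differed between the mixes by -0.99 ± 0.06. RPS23 had 513 and 595 scaled CPM in mix A and 1065 and 1122 in mix B, against 1059 and 1065 in control siRNA libraries. RPS23 differed between the mixes by -0.98 ± 0.067. RPS27L, a stress-related paralogue, had 14.9 and 17.3 scaled CPM in mix A and 71.7 and 73.6 in mix B, against 62.6 and 65.6 in control siRNA libraries. RPS27L differed between the mixes by -2.11 ± 0.066. Ribosomal protein genes have many processed pseudogenes that can share their reads. The median stayed below 0 in all alternatives, from -0.36 to -0.17.

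Small nucleolar RNA host genes and nuclear noncoding RNAs were mostly lower in mix A too, with 15 lower (65.2%) and 2 higher (8.7%) of 23. The shares of all genes were 24.3% and 25.7%. Their median was -0.52, with members from -1.58 to 0.84. Their summed level did not follow, with 8260 and 5749 scaled CPM in mix A and 8167 and 6714 in mix B. The mixes overlapped in this sum, and the mix A replicates lay far apart. GAS5, a host of snoRNAs, had 89.6 and 83.0 scaled CPM in mix A and 145 and 139 in mix B, against 143 and 141 in control siRNA libraries. GAS5 differed between the mixes by -0.71 ± 0.058. SNHG8 had 24.4 and 27.1 scaled CPM in mix A and 49.4 and 53.2 in mix B, against 54.6 and 51.7 in control siRNA libraries. SNHG8 differed between the mixes by -0.97 ± 0.068. Against control siRNA both were lower in mix A and not called in mix B, whereas against DMSO mix B was also called lower (-0.74 for GAS5 and -0.77 for SNHG8). Ribosome biogenesis genes moved less, with 24 lower (40.0%) and 8 higher (13.3%) of 60, and WDR3, a nucleolar processome protein, differed by -0.60 ± 0.07 while DKC1, dyskerin, differed by -0.51 ± 0.059.

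**Figure D4:**
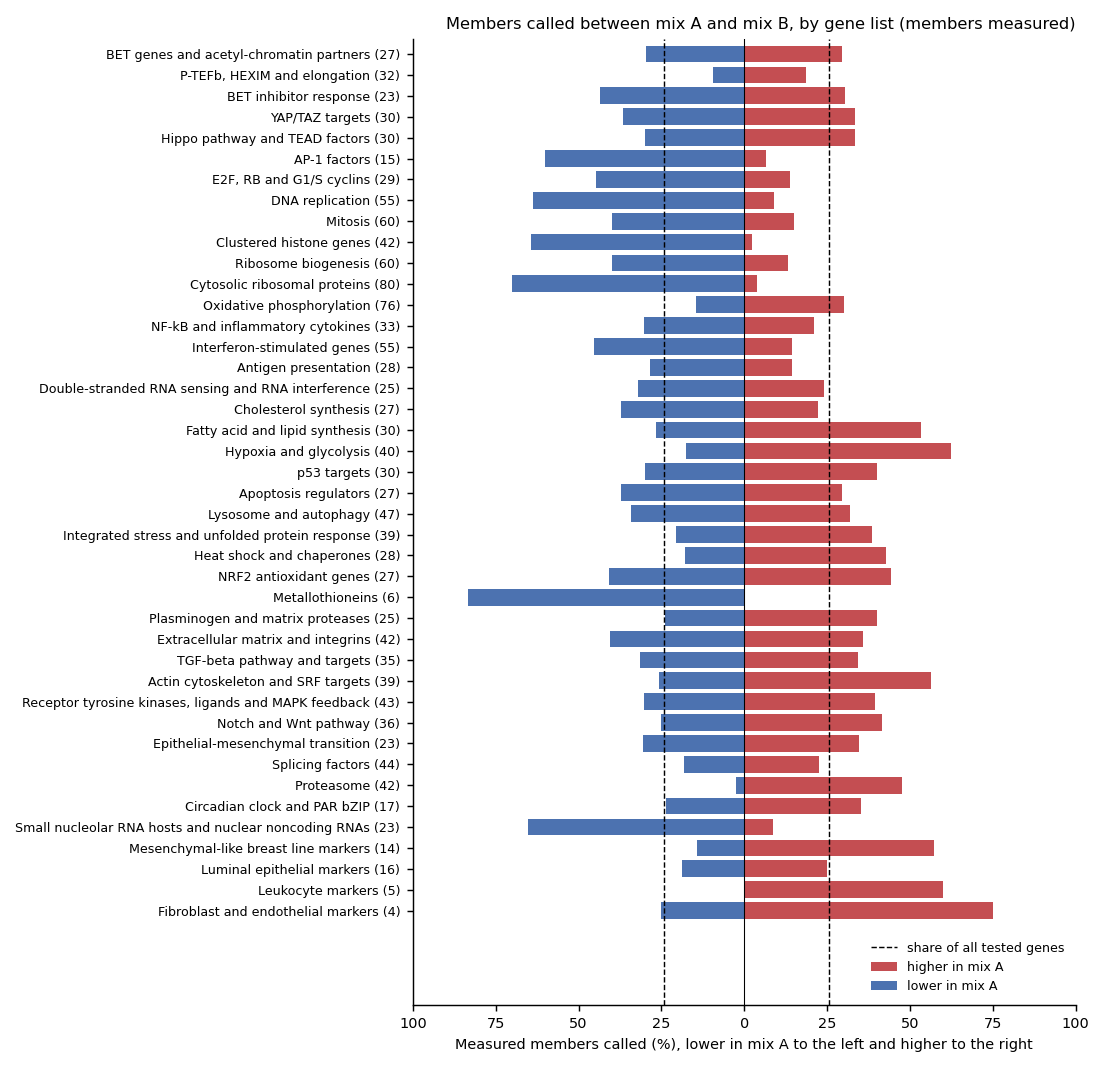
Share of the measured members of each gene list called higher (right) and lower (left) in mix A than in mix B, with the shares over all tested genes as dashed lines (25.7% higher, 24.3% lower). Ribosomal protein, histone and replication lists lie to the left, and glycolysis and proteasome lists to the right.

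Hypoxia and glycolysis genes were mostly higher in mix A, with 25 higher (62.5%) and 7 lower (17.5%) of 40 (median 0.28). The shares of all genes were 25.7% and 24.3%. HK1, hexokinase, had 308 and 336 scaled CPM in mix A and 173 and 170.1 in mix B, against 221 and 212 in control siRNA libraries. HK1 differed between the mixes by 0.90 ± 0.056. SLC2A1, the glucose transporter GLUT1, had 558 and 593 scaled CPM in mix A and 299 and 323 in mix B, against 474 and 495 in control siRNA libraries. SLC2A1 differed between the mixes by 0.89 ± 0.059, with mix A above and mix B below control, where the mix A call was lost under plain totals (0.092, limma adjusted p = 0.13) and quantile normalization (0.12, limma adjusted p = 0.069). TPI1, triosephosphate isomerase, differed by 0.81 ± 0.061. NDRG1, a hypoxia-induced gene, opposed them with 291 and 303 scaled CPM in mix A and 522 and 493 in mix B, against 55.0 and 55.0 in control siRNA libraries. NDRG1 differed between the mixes by -0.77 ± 0.062, both mixes lying far above control.

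Of 42 proteasome genes, 20 were higher (47.6%) and 1 lower (2.4%) in mix A, against 25.7% and 24.3% of all genes. The differences were small (median 0.13), as in PSMB1 at 0.45 ± 0.055 and PSMD8 at 0.52 ± 0.066. Over the main fit and the alternatives, 12 to 25 were higher and 0 to 7 lower. Of 30 genes of fatty acid and lipid synthesis, 16 were higher (53.3%) and 8 lower (26.7%). LPIN2, a phosphatidate phosphatase, had 368 and 377 scaled CPM in mix A and 139.6 and 141 in mix B, against 168 and 162 in control siRNA libraries. LPIN2 differed between the mixes by 1.40 ± 0.056. ELOVL5, a fatty acid elongase, had 52.8 and 60.5 scaled CPM in mix A and 145 and 146 in mix B, against 256 and 231 in control siRNA libraries. ELOVL5 differed between the mixes by -1.35 ± 0.065. Of 76 oxidative phosphorylation genes, 23 were higher (30.3%, near the 25.7% of all genes) and 11 lower (14.5%, against 24.3%), with a median of 0.059 that was below 0 in 2 alternatives. Cholesterol synthesis genes were split, with 6 higher (22.2%) and 10 lower (37.0%) of 27, and INSIG1, the sterol-sensing regulator, at -0.73 ± 0.064.

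**Figure D5:**
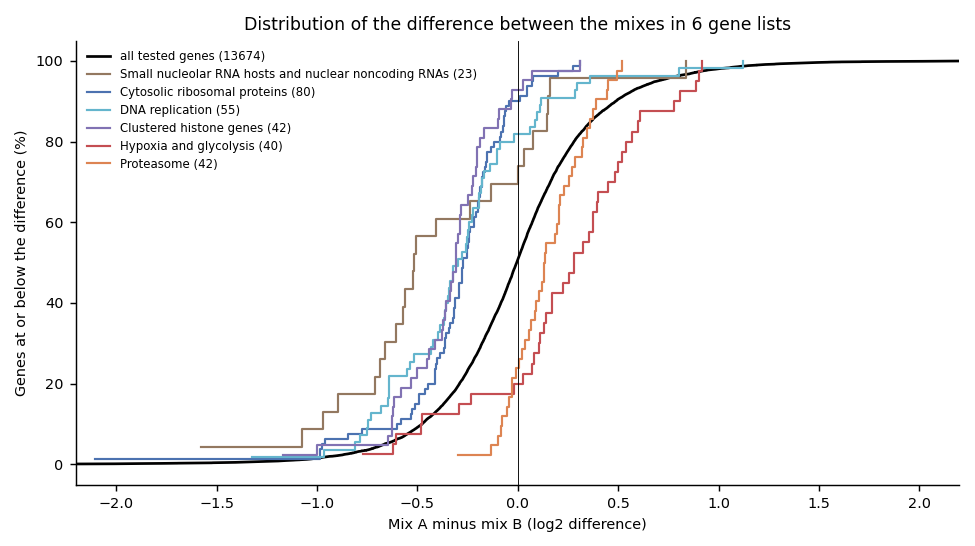
Cumulative share of genes at or below a mix A minus mix B difference (log2) in 6 gene lists and over all tested genes. Small nucleolar RNA hosts, ribosomal protein, replication and histone genes lie to the left of the all-gene curve, with medians of -0.52, -0.27, -0.30 and -0.31, and glycolysis and proteasome genes to the right, with 0.28 and 0.13.

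The ferritin genes, for iron storage, differed in opposite directions. FTL, ferritin light chain, had 1279 and 1369 scaled CPM in mix A and 3485 and 3506 in mix B, against 746 and 825 in control siRNA libraries. FTL differed between the mixes by -1.40 ± 0.069. FTH1, ferritin heavy chain, had 445 and 459.7 scaled CPM in mix A and 155 and 168 in mix B, against 184 and 219 in control siRNA libraries. FTH1 differed between the mixes by 1.48 ± 0.078. Mix B was high for the light chain and under control for the heavy chain, and mix A was above control for both. Both genes have processed pseudogenes that could share reads. Metallothioneins, zinc-binding proteins, were lower in mix A, with 5 of 6 called lower (83.3%, against 24.3% of all genes) and 0 higher. MT1X had 64.1 and 76.0 scaled CPM in mix A and 169 and 168 in mix B, against 17.3 and 17.3 in control siRNA libraries. MT2A had 649 and 764 scaled CPM in mix A and 1546 and 1437 in mix B, against 199 and 238 in control siRNA libraries, far above control in both mixes and more so in mix B, with differences of -1.26 ± 0.078 and -1.08 ± 0.092. The MT1 genes are near-identical copies.

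SQSTM1, the autophagy receptor p62, had 537 and 531 scaled CPM in mix A and 1540.1 and 1528 in mix B, against 195 and 225 in control siRNA libraries, with both mixes above control, mix B the more, and a difference of -1.52 ± 0.061 (limma adjusted p = 2.9e-14). NEU1, a lysosomal sialidase, had 165 and 166 scaled CPM in mix A and 57.1 and 58.2 in mix B, against 78.4 and 89.7 in control siRNA libraries. NEU1 differed between the mixes by 1.5 ± 0.063, and LAMP1 differed by -0.95 ± 0.053. The lysosome and autophagy list was evenly split, with 15 higher (31.9%) and 16 lower (34.0%) of 47, against 25.7% and 24.3% of all genes. SLC7A11, the cystine importer, had 32.2 and 32.1 scaled CPM in mix A and 136 and 136 in mix B, against 109.6 and 85.6 in control siRNA libraries, low in mix A alone, a difference of -2.05 ± 0.087. SLC7A5 and SLC3A2, the subunits of a large neutral amino acid transporter, were lower in mix A, with -0.97 ± 0.062 and -0.84 ± 0.058, and SLC7A1, an arginine transporter, was higher by 0.86 ± 0.062. The stress response list that holds these transporters had 15 higher (38.5%) and 8 lower (20.5%) of 39. The NRF2 list had 12 (44.4%) and 11 (40.7%) of 27, and the heat shock list 12 (42.9%) and 5 (17.9%) of 28.

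Proteases and matrix genes differed gene by gene. MMP14, a membrane-bound metalloproteinase, had 1244 and 1196 scaled CPM in mix A and 507 and 503 in mix B, against 408 and 449.8 in control siRNA libraries. MMP14 differed between the mixes by 1.27 ± 0.058. MMP1, collagenase, had 13.1 and 14.3 scaled CPM in mix A and 49.6 and 49.1 in mix B, against 4.37 and 4.94 in control siRNA libraries. MMP1 differed between the mixes by -1.77 ± 0.095. The protease list of 25 had 10 higher (40.0%) and 6 lower (24.0%), against 25.7% and 24.3% of all genes. ITGB1, integrin beta 1, had 750.1 and 863 scaled CPM in mix A and 2099 and 2088 in mix B, against 1083 and 996 in control siRNA libraries. ITGB1 differed between the mixes by -1.38 ± 0.073. ITGB4, integrin beta 4, had 185 and 164 scaled CPM in mix A and 72.2 and 70.0 in mix B, against 110.1 and 126 in control siRNA libraries. ITGB4 differed between the mixes by 1.28 ± 0.084. Of 42 matrix and integrin genes, 15 were higher (35.7%) and 17 lower (40.5%). BMP4 and TGFBR2, a ligand and a receptor of the TGF-beta superfamily, were higher in mix A by 1.43 ± 0.053 and 1.21 ± 0.056, and PMEPA1, a TGF-beta-induced inhibitor of SMAD signalling, was lower, with -1.21 ± 0.061. Their list had 12 higher (34.3%) and 11 lower (31.4%) of 35.

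Of 39 actin cytoskeleton and SRF target genes, 22 were higher (56.4%) and 10 lower (25.6%) in mix A, against 25.7% and 24.3% of all genes. TAGLN2, transgelin 2, had 145 and 168 scaled CPM in mix A and 49.7 and 52.4 in mix B, against 313 and 311 in control siRNA libraries. TAGLN2 differed between the mixes by 1.59 ± 0.062. CNN2, calponin 2, had 227 and 247 scaled CPM in mix A and 100.5 and 102 in mix B, against 264 and 279 in control siRNA libraries. CNN2 differed between the mixes by 1.22 ± 0.058. For both, the lowest levels were those of mix B. JAG1, a Notch ligand, had 149.7 and 153 scaled CPM in mix A and 388 and 376 in mix B, against 396 and 372 in control siRNA libraries, low in mix A only, a difference of -1.33 ± 0.051. RBPJ, the DNA-binding partner of Notch, had 242 and 249 scaled CPM in mix A and 101 and 104 in mix B, against 173 and 149 in control siRNA libraries. RBPJ differed between the mixes by 1.25 ± 0.063. Of 36 Notch and Wnt genes, 15 were higher and 9 lower. Of 43 receptor tyrosine kinase, ligand and MAPK feedback genes, 17 were higher (39.5%) and 13 lower (30.2%), with the receptor EPHB4 at 1.32 ± 0.067 and the EGF-family ligands EREG and TGFA at -1.23 ± 0.071 and 1.08 ± 0.062.

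Interferon-stimulated genes were more often lower in mix A, with 25 lower (45.5%) and 8 higher (14.5%) of 55 (median -0.16). The shares of all genes were 24.3% and 25.7%. IFIT2 had 60.1 and 65.7 scaled CPM in mix A and 115 and 117 in mix B, against 31.3 and 29.5 in control siRNA libraries. IFIT2 differed between the mixes by -0.87 ± 0.068. IFIT3 had 35.4 and 42.3 scaled CPM in mix A and 74.4 and 79.4 in mix B, against 65.4 and 64.6 in control siRNA libraries. IFIT3 differed between the mixes by -0.97 ± 0.072. OAS3, a sensor of double-stranded RNA, had 1.56 and 1.68 scaled CPM in mix A and 4.29 and 4.90 in mix B, against 35.4 and 31.3 in control siRNA libraries, with both mixes far under control. Among 25 genes of double-stranded RNA sensing and RNA interference, 6 were higher (24.0%) and 8 lower (32.0%), with AGO2, the slicing Argonaute, at -0.49 ± 0.067 and EIF2AK2, the kinase PKR, at 0.44 ± 0.066. NFKBIA, the inhibitor of NF-kB, had 183 and 204 scaled CPM in mix A and 75.8 and 71.0 in mix B, against 50.3 and 59.5 in control siRNA libraries. NFKBIA differed between the mixes by 1.38 ± 0.081. IL11 had 20.2 and 20.3 scaled CPM in mix A and 61.7 and 62.3 in mix B, against 84.3 and 89.8 in control siRNA libraries. IL11 differed between the mixes by -1.57 ± 0.065, within a list of 7 higher (21.2%) and 10 lower (30.3%) of 33.

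In the remaining lists most members were not called or were split, apart from the G1/S genes, more often lower in mix A. These had 13.8% higher and 44.8% lower, against 25.7% and 24.3% of all genes. The numbers higher and lower in mix A were 4 and 8 of 28 (14.3% and 28.6%) for antigen presentation and 8 and 10 of 27 (29.6% and 37.0%) for apoptosis regulators. For epithelial-mesenchymal transition they were 8 and 7 of 23 (34.8% and 30.4%). They were 10 and 8 of 44 for splicing factors, 6 and 4 of 17 for the circadian clock, 4 and 3 of 16 for luminal markers and 4 and 13 of 29 for E2F, RB and G1/S cyclin genes. MCL1 and BCL2L1, inhibitors of apoptosis, moved oppositely, at -0.62 ± 0.054 and 0.59 ± 0.056.

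Across genes, the mix A minus mix B difference had a Pearson r of 0.046 with JQ1 minus DMSO, which shares no library with it. Mix A minus control siRNA had r = 0.60 and mix B minus control siRNA r = 0.61 with JQ1 minus DMSO over the same 13674 genes, which are not independent replicates.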

How the data were processed

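RNA from MDA-MB-231 cells was sequenced as stranded total RNA libraries depleted of ribosomal RNA, per the labels. The authors deposited 1 table of 13734 genes by 14 libraries, whose unit is not stated. Its values gave whole reads in 100% of cases (tolerance 0.01), and edgeR TMM factors computed on those reads match the deposited signal, so the values were read as CPM after TMM scaling. Tools listed by the submitters' processing notes, without roles, are TopHat2 2.0.5, CASAVA 1.8.4, edgeR, HTSeq 0.6.0 and R 3.0.0, with the build hg19.

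Genes at 1 or more in at least 2 libraries (13674) were tested with limma 3.58.1 (R 4.3.3) on log2(value + 1), with 1 term per group over 14 libraries and a variance trend, two-sided, with Benjamini-Hochberg adjustment in each comparison. The fit had 7 residual degrees of freedom, 13.2 from the prior, and a median residual SD of 0.0852. Alternatives were a pseudocount of 0.25 or 4, a filter at 5 or none, other scalings, a replicate block, edgeR 4.0.16 and DESeq2 1.42.0 on the recovered reads, each library left out, and DMSO as the control.

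Named genes were chosen readouts (BET, YAP/TAZ and response genes), the 15 largest differences each way without overlap between the mixes and with a mean of at least 5 in the higher mix, 8 each way on opposite sides of control, and up to 4 members of each of 42 gene lists by limma's statistic; not all of the last are printed, and some named genes are not reported here. Members, lists and words were chosen with earlier results of these data known. Same-numbered libraries were not paired by the labels. The reads per library range from 15741695 to 37311326, and their number limits the precision for low genes. Level and cell number cannot be told apart in bulk RNA.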

Additional observations from a re-analysis of the deposited data

Results flagged for a closer look

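In 16 genes the effect of mix A and the effect of mix B relative to control siRNA had opposite signs, each called by limma, and the difference between the effects was itself called. The mix A minus mix B difference was positive, with mix A above and mix B below control siRNA, for ARPC1B (2.56), PRNP (2.25), ACOT7 (2.22), P2RY2 (2.19), FZD1 (2.16), SIGIRR (2.14), HMGA2 (1.93) and NGFR (1.75). It was negative, with mix A below and mix B above control siRNA, for SESN3 (-2.85), KCTD12 (-2.48), MBLAC2 (-2.27), GNPNAT1 (-1.81), C9orf72 (-1.88), EPB41L4A-AS1 (-1.58), RHOB (-1.67) and PTBP2 (-1.45). The genes were taken as the 8 most opposed each way, so that their number says nothing of how common the pattern was. Both effects use the same 2 control libraries, and the mix A replicates differed from each other more than those of mix B did. With the DMSO libraries as the control, 7 of the 16 genes no longer had the mixes on opposite sides. These were SESN3, RHOB, SIGIRR, MBLAC2, HMGA2, NGFR and GNPNAT1, and EPB41L4A-AS1 in mix B was no longer called. What sets the genes apart was not tested.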

How the results depend on the processing

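Between mix A and mix B, 122 of 125 named genes kept their direction and their side of the threshold in 19 alternatives, and the 3 others are BRD2, BRD3 and YAP1. The counts of called genes stayed within 1.5 times, except those of at least 2-fold. For mix A against mix B, 482 became 734 with a pseudocount of 0.25, 273 with 4, 932 in edgeR and 862 in DESeq2. With a pseudocount of 4, the count of at least 2-fold against control siRNA was 1393 for mix A (2141 as reported) and 1158 for mix B (1855). Leaving out 1 library gave 5540 to 7067 calls between the mixes, 481 to 509 of them at least 2-fold, 9407 to 9952 for mix A and 8713 to 9914 for mix B against control. The replicate number as a block gave 6809 calls between the mixes and 482 of at least 2-fold. Same-numbered deviations correlated at 0.20 between the mixes, -0.22 for mix A and control, and 0.032 for mix B and control, so the numbers were not taken as a pairing. With the DMSO libraries as the control, differences called against control siRNA changed sign in mix A for CTGF (-0.41), ANKRD1 (-0.40), CHST3 (-0.032), ISOC1 (-0.50), AP1M1 (-0.18), SESN3 (0.26), RHOB (0.25) and CNN2 (0.52). In mix B they did for WWTR1 (0.23), ANKRD1 (-0.12), MYC (-0.15), SIGIRR (0.13), S100A4 (1.08), MBLAC2 (-0.042), HMGA2 (0.39), NGFR (0.20), GNPNAT1 (-0.73), RPS12 (-0.17), LPIN2 (0.23), NEU1 (0.30), SLC7A11 (-0.18) and ITGB4 (0.64). Values not called against control siRNA were called against DMSO in mix A for CYR61 (-0.81), SSPN (0.54), RBMS3 (-0.22) and CCND2 (1.13), and in mix B for C10orf54 (0.82), HIST2H2BE (-0.41), RPSA (-0.53), RPS23 (-0.35), SNHG8 (-0.77) and GAS5 (-0.74). Of 165 named values called against control siRNA, 14 lost their call in at least 1 alternative, in mix A for WWTR1, MYC, AP1M1, SLC2A1, CNN2 and EGR1, and in mix B for NRAS, LHFP, EPB41L4A-AS1, RPS27L, IFIT3, CCNG1, FTH1 and MMP14. AP1M1 in mix A also changed sign under plain totals (-0.0057), which moved the all-gene median of mix A minus control to -0.12. Taking the shortest 3'UTR per gene, chosen after seeing the data, gave 0.22 for GTACCAA and -0.087 for ATCATAA. The cause of these changes was not tested. A depth of 15741695 to 29931316 reads and 2 libraries a group limit small differences of low genes.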
